A study of Mus musculus with 8 samples.

Results

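The 9 genes described here encode proteins that release calcium from the endoplasmic reticulum (ER), pump it back into the ER or out of the cell, or carry it into mitochondria. They are the IP3 receptors Itpr1, Itpr2 and Itpr3, the ER pumps Atp2a2 and Atp2a3, the plasma membrane pumps Atp2b1 and Atp2b4, the mitochondrial uniporter Mcu and its regulator Micu2. They were chosen by name for this function, with earlier results of these data known, and each matched 1 of the 52459 genes listed by symbol. All 9 averaged at least 10 normalized counts and so were among the 15419 genes tested, and the lowest single value rested on 234 reads. The study asked how store-operated calcium entry controls gene expression in regulatory T (Treg) cells, the Foxp3-expressing CD4+ T cells that restrain immune responses. The series holds 8 RNA libraries of sorted Treg cells, in 4 groups of 2 given by genotype and stimulation. The cells labelled Stim1/2-deficient (DKO) were CD4+CD25hi YFPcre+ Treg cells and the WT cells were CD4+CD25hi YFPcre- Treg cells, both sorted from pooled spleen and lymph nodes of several heterozygous female C57BL/6 mice per sample. The labels, which call the WT cells only WT, spell the alleles of the deficient cells Stim1 fl/f and Stim2 fl/fll with Foxp3-YFPcre. By the study's methods, the mice carried floxed Stim1 and Stim2 and a single copy of Foxp3-YFPcre, in which the Foxp3 promoter on the X chromosome drives the recombinase. The WT cells therefore carry the same floxed alleles and come from the same kind of animal, and genotype cannot be told apart from use of the Foxp3-YFPcre allele. Ages were not given in the sources used here. Cells were either unstimulated or kept for 16 h with 1 µg/ml plate-bound anti-CD3/CD28.

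As background, engagement of the T cell receptor activates phospholipase C, which makes IP3, and IP3 opens its receptors in the ER membrane so that stored calcium flows into the cytosol. STIM1 and STIM2 sense the emptied store and open ORAI channels in the plasma membrane. SERCA pumps (Atp2a genes) refill the store, PMCA pumps (Atp2b genes) expel calcium from the cell, and the mitochondrial calcium uniporter takes up calcium near open channels. Relative amounts of these proteins shape how large a calcium signal is and how long it lasts in a T cell.

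Promoters are shown for Atp2b4, which differed most between genotypes, for Atp2b1, the other plasma membrane pump, and for Mcu, which rose with stimulation in WT cells. Each window runs from 250 bases before to 50 bases after a transcription start in RefSeq on GRCm38.p6, and 7 of the 9 genes matched such a table (8 windows, with a pair for Atp2b1). The windows were searched on both strands for GGAAAA, the letters that NFAT proteins favour, TGACTCA, an AP-1 motif, and TTCNNNGAA, a STAT motif. Capitals mark the matches, and sequences run 5′ to 3′ on the strand of the gene. The Atp2b4 window lies at chr1:133753698-133753997 on the minus strand, inside the RefSeq span of the gene (133702674 to 133801059), the Atp2b1 window at chr10:98914392-98914691 on the plus strand and the Mcu window at chr10:59616643-59616942 on the minus strand.
Atp2b4: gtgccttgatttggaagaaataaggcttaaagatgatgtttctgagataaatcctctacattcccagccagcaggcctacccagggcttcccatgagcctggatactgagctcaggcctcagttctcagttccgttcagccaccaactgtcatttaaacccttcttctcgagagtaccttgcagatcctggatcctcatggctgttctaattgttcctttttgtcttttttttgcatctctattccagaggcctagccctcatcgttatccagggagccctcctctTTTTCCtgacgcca
Atp2b1: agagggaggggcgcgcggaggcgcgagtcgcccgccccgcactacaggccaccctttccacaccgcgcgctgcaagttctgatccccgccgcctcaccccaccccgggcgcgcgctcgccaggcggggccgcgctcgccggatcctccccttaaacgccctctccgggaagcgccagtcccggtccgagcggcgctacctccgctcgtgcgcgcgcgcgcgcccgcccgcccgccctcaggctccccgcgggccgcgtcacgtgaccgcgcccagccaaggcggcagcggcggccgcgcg
Mcu: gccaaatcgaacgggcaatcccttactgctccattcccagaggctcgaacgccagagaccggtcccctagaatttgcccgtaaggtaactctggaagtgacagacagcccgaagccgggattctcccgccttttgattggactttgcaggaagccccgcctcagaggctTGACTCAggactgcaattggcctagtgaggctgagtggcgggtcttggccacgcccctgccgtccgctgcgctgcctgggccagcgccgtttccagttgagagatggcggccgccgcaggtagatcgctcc
The Atp2b4 window held 1 GGAAAA on the opposite strand, at positions 36 to 41 with the start base counted as 0, where the capitals show its complement. GGAAAA occurred in 23.4% of all 32851 windows of this length in the table. The Mcu window held 1 TGACTCA, at -81 to -75, and 5.2% of all windows did. None of the 8 windows held TTCNNNGAA, which 8.3% of all windows hold, and none of the 3 motifs occurred in the windows of Itpr2, Itpr3, Atp2a3, Atp2b1 or Micu2. Base composition differed among the members. GC content was 47.7% for Atp2b4, against a median of 52.7% over all windows, and the other 7 windows had 61.7% to 79.3%. The Atp2b4 window is not at the 5′ end of the RefSeq span, at 133801059, and the start used in these cells was not measured. A match to a motif is a description of the letters, and none of these data measured binding.

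Libraries held 11851853 to 16306540 reads on genes, and the values used are the authors' normalized counts, that is, reads on a gene scaled by a size factor of the library. Foxp3 was present in every library, at 4258 to 11918 normalized counts. The summed level of 7 Treg cell markers was 87840 to 94553 normalized counts in unstimulated WT libraries and 42374 to 49397 in the unstimulated libraries labelled Stim1/2-deficient. Of these, Ctla4 had 37403 and 35119 in WT against 6338 and 17333, and Ikzf2 had 18953 and 19707 against 8398 and 9233. Foxp3 had 10001 and 8159 against 4947 and 4258, and Il2ra, the gene of the sort marker CD25, had 11360 and 10408 against 7021 and 6821. Cd4 had 10760 and 8918 against 10363 and 7005, and Cd3e had 3424 and 3294 against 3042 and 3156. Cd3g had 2651 and 2235 against 2265 and 1592. The paper reports Foxp3, Ctla4 and Ikzf2 as lower without STIM1 and STIM2, and Il2ra as dependent on them. The sum therefore does not measure Treg cell content. Markers of other cells moved with genotype as well. The 12 macrophage and monocyte markers summed to 454 to 469.8 in unstimulated WT libraries, with 2 of the 12 at 0, and to 10570 and 1712 in labelled replicates 1 and 2, with none at 0. The 8 B cell markers summed to 236 to 299.9 in the former and to 3338 and 832 in the latter. Labelled unstimulated replicate 1 thus stood apart, and results were computed with and without it. Stimulated replicates differed too. In WT replicates 1 and 2, B cell markers summed to 948.5 and 181, 6 neutrophil markers to 564 and 274, and 6 CD8 T and NK cell markers to 830 and 563. In labelled replicates 1 and 2 these sums were 1417 and 306, 839 and 152, and 1369 and 437. Before stimulation Stim1 itself ranged from 1139 to 1377 in WT and from 1538 to 1868 in labelled libraries, and Stim2 from 906 to 908 and from 744 to 904. After stimulation Stim1 had 645 to 673 in WT and 552 to 642 in labelled libraries, and neither gene was called lower in either state. Which exons are deleted is not given in the sources used here, and a gene total also counts reads outside them, so that the labels could not be checked in this way. Genes were tested with limma on log2(normalized count + 1) in 1 model of the 4 groups, and "called" means a change of more than 1.5-fold with an adjusted p (Benjamini-Hochberg) under 0.05. The p-values rest on the spread between the 2 pooled samples of a group, combined over the 4 groups and drawn toward that of other genes.

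Genotype changed 1 of the 9 genes in unstimulated cells. Atp2b4, which encodes the plasma membrane calcium pump PMCA4, was 5.92-fold lower in the labelled libraries, and no member was called higher. Over all tested genes, 4.73% were called in this comparison, 3.35% lower and 1.38% higher. The median log2 fold change of the 9 genes was -0.10, beside -0.0057 over all tested genes. After 16 h of stimulation 0 of the 9 genes were called by limma, where 0.272% of all genes were (0.11% lower, 0.162% higher), and edgeR called 0 members. DESeq2 called Itpr1 and Atp2b4, and 3.4% of all genes. Without adjustment, 3 members passed p under 0.05 and 1.5-fold in stimulated cells, namely Itpr1, Atp2b4 and Mcu, and all 3 were lower, against 6.95% of all genes in this direction. Stimulation changed more of the members. It lowered 3 and raised 2 in WT cells and lowered 5 and raised 1 in labelled cells, where 23.3% of all genes were called in WT (13.1% lower, 10.2% higher) and 25% in labelled cells (12% lower, 13% higher). All stimulated libraries shared 1 sequencing lane and all unstimulated libraries another, so that stimulation and lane cannot be told apart.

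**Figure D1:**
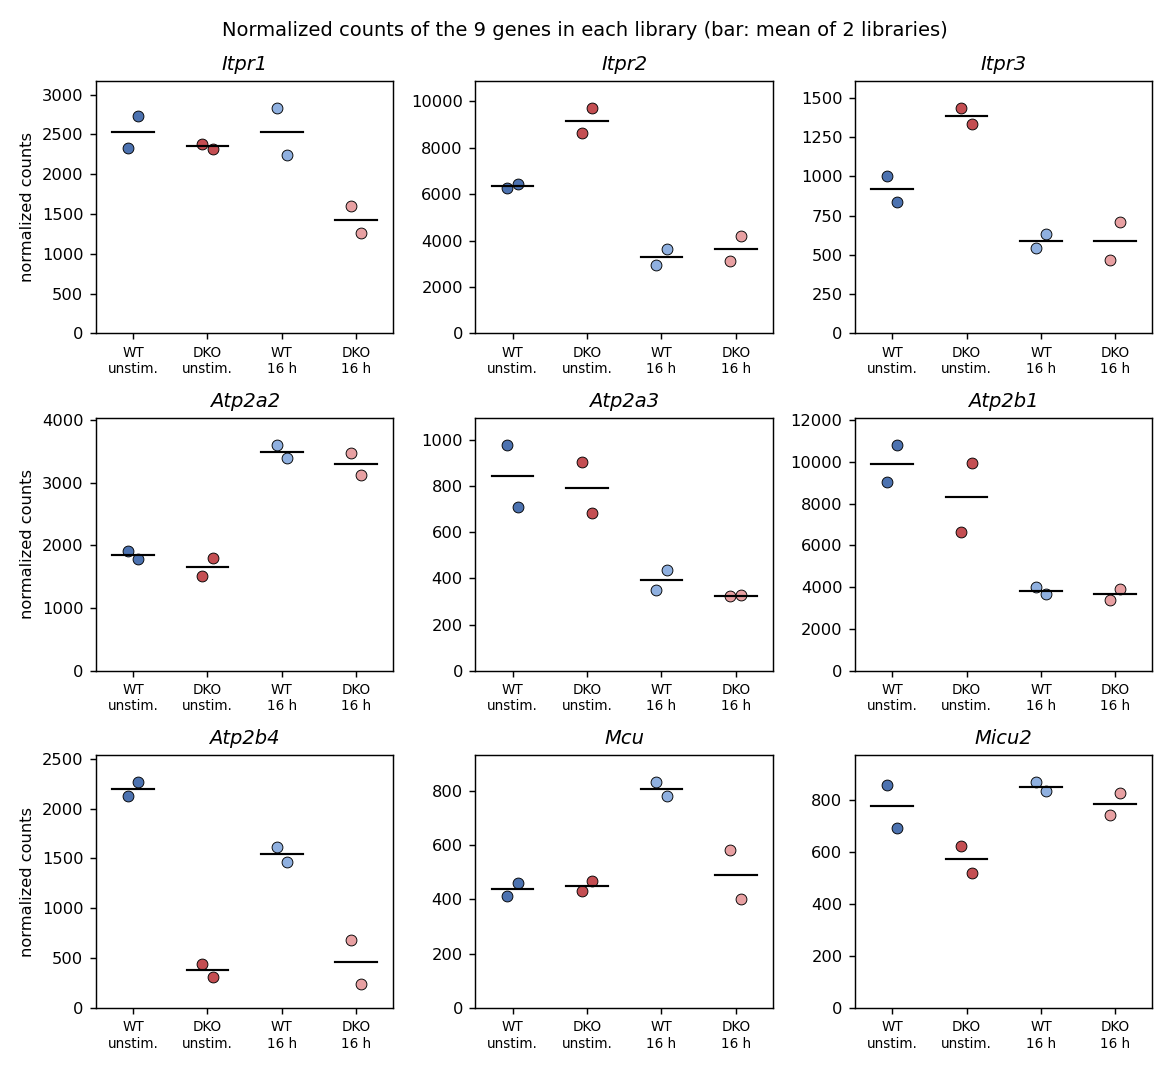
Normalized counts of the 9 genes in each of the 8 libraries, by genotype and stimulation, with points for single libraries and a bar for the mean of 2. Atp2b4 lies at 2131 to 2265 in unstimulated WT libraries and at 313 to 439 in unstimulated libraries labelled Stim1/2-deficient (DKO).

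Among the IP3 receptors, the ER channels that release stored calcium, Itpr2 had the highest level per kilobase of exon in unstimulated cells of both genotypes. Unstimulated WT libraries had 6275 and 6430.2 normalized counts of Itpr2 and labelled libraries had 8625 and 9705. The labelled libraries were both the higher ones, by 0.53 on the log2 scale (SE 0.196, adjusted p = 0.152, limma), and the gene was not called. Itpr3 showed the same order, with 1004 and 836 in WT and 1433 and 1333 in labelled libraries (log2 fold change 0.59, SE 0.235, adjusted p = 0.174, limma). Groups lay apart in this direction for 26.5% of all tested genes. Itpr1 had 2324.5 and 2727 in WT and 2378 and 2321 in labelled libraries, which overlapped (log2 fold change -0.10, 95% confidence interval -0.54 to 0.34).

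After stimulation Itpr1 was the receptor gene with the largest difference between genotypes. Itpr1 had 2829.9 and 2239.9 normalized counts in stimulated WT libraries and 1595 and 1266 in stimulated labelled libraries. The labelled libraries lay below both WT libraries, by 1.77-fold (log2 fold change -0.82, SE 0.198, unadjusted p = 0.00185, adjusted p = 0.104, limma). Groups lay apart in this direction for 23.1% of all genes, and in the other for 24.3%. Stimulated levels of Itpr2 were 2933 and 3640.0 in WT and 3114 and 4186 in labelled libraries, and those of Itpr3 were 541 and 632 against 469 and 706. Both overlapped between genotypes.

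Within each genotype, stimulation lowered Itpr2. It fell 1.94-fold in WT cells (log2 fold change -0.96, SE 0.196, adjusted p = 0.00811, limma) and 2.53-fold in labelled cells (log2 fold change -1.34, adjusted p = 0.00159, limma). Itpr3 fell 2.40-fold in labelled cells (log2 fold change -1.26, adjusted p = 0.00474, limma), and in WT cells its log2 fold change was -0.65 with an adjusted p of 0.0715. Itpr1 fell 1.65-fold in labelled cells (log2 fold change -0.72, SE 0.198, adjusted p = 0.0238, limma), a call that held in 14 of 18 alternatives. It was lost with libraries rescaled to equal totals (log2 fold change -0.33, adjusted p = 0.218, limma), without stimulated labelled replicate 2 (log2 fold change -0.56), with a replicate block and in a fit to the 4 labelled libraries. In WT cells its log2 fold change was 1.1e-05, with an interval of -0.44 to 0.44. The test of the difference between the 2 responses of Itpr1 gave -0.72 on the log2 scale (SE 0.280, unadjusted p = 0.0265, adjusted p = 0.569, limma), so that a difference between genotypes in the response was not shown.

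**Figure D2:**
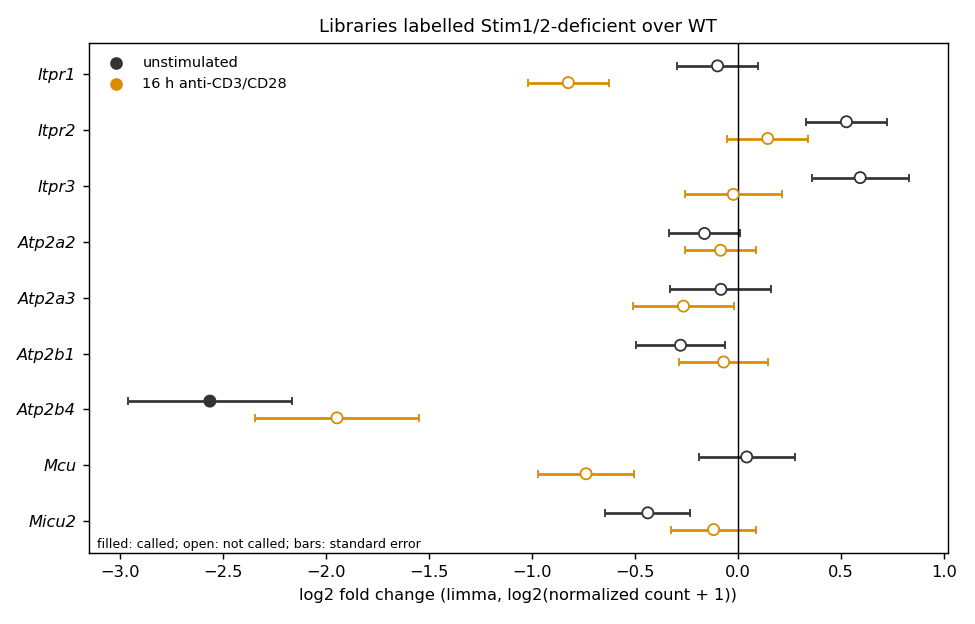
Log2 fold change of libraries labelled Stim1/2-deficient over WT for each gene, unstimulated in black and after 16 h of anti-CD3/CD28 in orange, with bars of 1 standard error. Atp2b4 in unstimulated cells, at -2.56, is the only filled (called) point among the 18, and Itpr1, Atp2b4 and Mcu lie lowest in stimulated cells.

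The genes of the SERCA pumps, which refill the ER store, were not called between genotypes in either state. Atp2a2, the widely expressed SERCA2 gene, had 1901 and 1787 normalized counts in unstimulated WT and 1509 and 1796 in labelled libraries (log2 fold change -0.16, 95% confidence interval -0.55 to 0.22). Atp2a3, the SERCA3 gene typical of blood cells, had 979 and 709 against 906 and 682 (log2 fold change -0.083, interval -0.63 to 0.46). In stimulated cells the log2 fold changes were -0.085 and -0.27, with adjusted p of 0.882 and 0.693 (limma). Atp2a3 lay lower in both labelled libraries there, at 322 and 329 against 352 and 437 in WT, as did 23.1% of all genes.

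Stimulation moved the SERCA genes in opposite directions in both genotypes. Atp2a2 rose to 3596 and 3390.2 in WT libraries and to 3467 and 3127 in labelled libraries, 1.89-fold (adjusted p = 0.00551, limma) and 2.00-fold (adjusted p = 0.00336, limma). Atp2a3 fell 2.12-fold in WT (log2 fold change -1.09, SE 0.246, adjusted p = 0.0121, limma) and 2.41-fold in labelled cells (log2 fold change -1.27, adjusted p = 0.00559, limma). Stimulated and unstimulated libraries did not overlap for either gene in either genotype. Among all genes, 36% lay lower and 35% higher without overlap in WT, and 30.6% and 30.8% did in labelled cells. Of the reads of both genes together, Atp2a3 took 28.4% to 34.0% in unstimulated WT libraries and 8.90% to 11.4% after stimulation. In labelled libraries this share was 27.5% to 37.5% before and 8.51% to 9.53% after. A share within a library does not depend on how libraries are scaled.

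The plasma membrane pumps held the one called difference between genotypes. In unstimulated cells Atp2b4 stood at 2131 and 2265 normalized counts in WT and at 439 and 313 in labelled libraries. The lower WT library was far above both labelled ones, and the log2 fold change was -2.56 (SE 0.398, 95% confidence interval -3.45 to -1.68, adjusted p = 0.0113, limma). Fewer cells with the transcript and less of it per cell cannot be told apart in such samples. The value was -2.81 without labelled replicate 1, the library with most macrophage and B cell transcripts, and -2.32 without replicate 2, and the gene was called in both cases. The part that the lower Treg markers of the labelled libraries have in it was not tested. The call was lost when either WT library was left out, which leaves 1 library in that group (adjusted p up to 0.173, limma).

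In stimulated cells Atp2b4 had 1619.5 and 1463 normalized counts in WT and 676 and 235 in labelled libraries. Both labelled libraries were again below WT, by 3.86-fold (log2 fold change -1.95, SE 0.398, interval -2.83 to -1.06), but the adjusted p was 0.069 (limma) and the gene was not called. Of all genes, 23.1% had groups apart in this direction. The labelled libraries lay far apart, and the log2 fold change was -2.71 without replicate 1 and -1.19 without replicate 2. Stimulated labelled replicate 1 also held the higher sums of B cell, neutrophil and CD8 T and NK cell markers. The part of such cells in these values was not tested. Atp2b4 was called in stimulated cells without replicate 1 and not without replicate 2, and each of these fits leaves 1 library in the group. Stimulation itself gave log2 fold changes of -0.51 in WT (adjusted p = 0.377, limma) and 0.10 in labelled cells (adjusted p = 0.87, limma). The genotype difference was not shown to change with stimulation (interaction 0.62 on the log2 scale, SE 0.563, adjusted p = 0.786, limma).

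Atp2b1, the PMCA1 gene and per kilobase the higher gene of the pair in every group, was not called between genotypes. It had 9029 and 10795 normalized counts in unstimulated WT and 6657 and 9940.5 in labelled libraries, which overlapped (log2 fold change -0.28, adjusted p = 0.488, limma). Without labelled replicate 1 this value was 0.0098. Stimulation lowered Atp2b1 to 4004 and 3652 in WT, 2.58-fold (log2 fold change -1.37, SE 0.215, adjusted p = 0.00273, limma), and to 3386 and 3919.9 in labelled libraries, 2.23-fold (log2 fold change -1.16, adjusted p = 0.00461, limma). It was called in both genotypes in every alternative tried. Atp2b4 made up 17.3% to 19.1% of the reads of both genes in unstimulated WT libraries and 3.05% to 6.19% in labelled ones. After stimulation the share was 28.6% to 28.8% in WT and 5.65% to 16.6% in labelled libraries. The genotypes thus lay apart in both states whatever the scaling. Single genes lay apart in this direction for 27.1% of all genes before stimulation and 23.1% after, and other gene pairs were not counted.

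**Figure D3:**
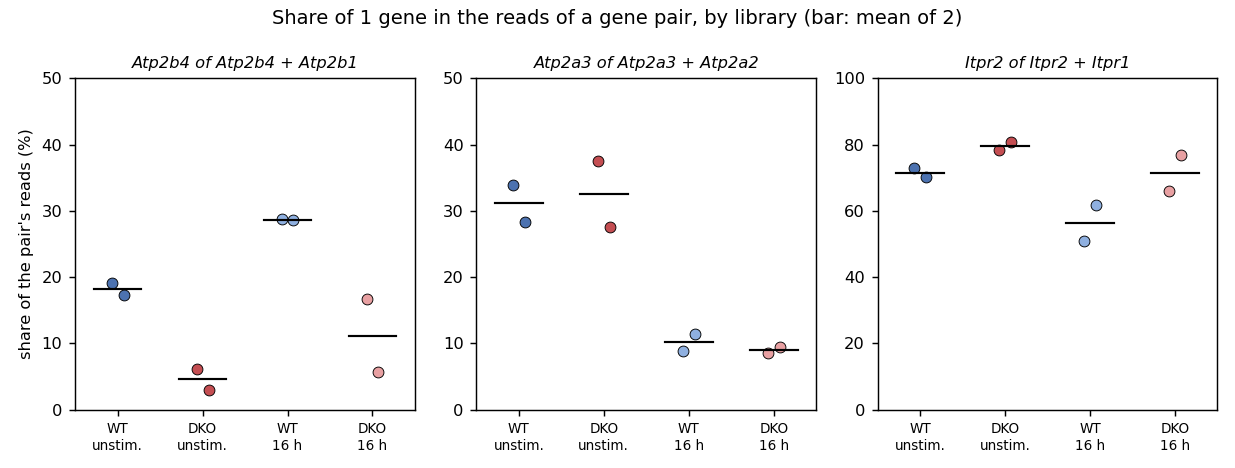
Share of 1 gene in the reads of a gene pair in each library, as percent, with bars for the mean of 2 libraries. Atp2b4 of Atp2b4 and Atp2b1 is lower in all 4 labelled (DKO) libraries than in the 4 WT libraries, whereas Atp2a3 of Atp2a3 and Atp2a2 drops with stimulation in both genotypes. The third panel shows Itpr2 of Itpr2 and Itpr1 on an axis to 100%, with 70.2% to 73.0% in unstimulated WT and 78.4% to 80.7% in unstimulated labelled libraries.

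Mcu encodes the pore-forming subunit of the mitochondrial uniporter. Unstimulated libraries had 411 and 462 normalized counts in WT and 429.9 and 469 in labelled cells (log2 fold change 0.042, interval -0.48 to 0.56). In WT cells Mcu rose with stimulation to 832 and 782, 1.85-fold (log2 fold change 0.89, SE 0.233, adjusted p = 0.0214, limma). This call was lost when any 1 of the 4 WT libraries was left out (adjusted p up to 0.135, limma). In labelled cells it had 584 and 400.2 after stimulation, which overlapped the unstimulated values (log2 fold change 0.11, adjusted p = 0.766, limma). Stimulated labelled libraries thus lay below stimulated WT libraries (log2 fold change -0.74, unadjusted p = 0.00971, adjusted p = 0.182, limma), an order found for 23.1% of all genes. The difference between both responses was -0.78 on the log2 scale (SE 0.329, unadjusted p = 0.0387, adjusted p = 0.587, limma). Over all 15419 genes none was called for this difference by limma, 8.09% passed an unadjusted p under 0.05 with 1.5-fold, and among the 9 members these were Itpr1 and Mcu. DESeq2 called 47 genes and edgeR 0, none of them a member. Without unstimulated labelled replicate 2, limma called 196 genes, again no member.

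Micu2, which encodes a gatekeeper of the uniporter, stood at 859 and 693 normalized counts in WT and at 625 and 518 in labelled libraries before stimulation. The labelled libraries were lower (log2 fold change -0.44, SE 0.206, adjusted p = 0.245, limma), and groups lay apart in this direction for 27.1% of all genes. After stimulation Micu2 had 869 and 834 in WT and 743 and 827 in labelled libraries. Both labelled libraries were again lower (log2 fold change -0.12, adjusted p = 0.855, limma), as for 23.1% of all genes. The log2 fold change with stimulation was 0.14 in WT (adjusted p = 0.652, limma) and 0.46 in labelled cells (adjusted p = 0.125, limma), and neither was called.

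**Figure D4:**
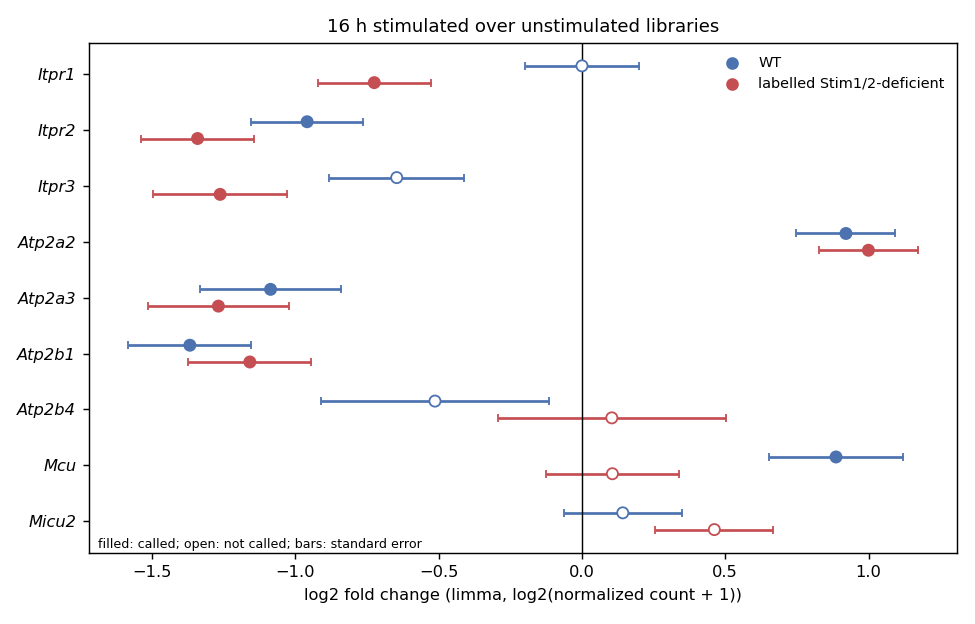
Log2 fold change of 16 h stimulated over unstimulated libraries for each gene, in WT (blue) and labelled Stim1/2-deficient cells (red), with bars of 1 standard error and filled points for called genes. Itpr2, Atp2a3 and Atp2b1 fell and Atp2a2 rose in both genotypes, with values from -1.37 to 1.00.

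Across the members, 5 of 9 stimulated WT levels lay below both unstimulated ones and 2 above, with the same counts in labelled cells. The shares of all genes were 36% and 35% in WT and 30.6% and 30.8% in labelled cells. Between genotypes, 2 of 9 lay lower and 2 higher in both unstimulated labelled libraries, beside 27.1% and 26.5% of all genes. In stimulated cells 5 lay lower and 0 higher, beside 23.1% and 24.3%. The median log2 fold change of the 9 genes with stimulation was -0.51 in WT and -0.72 in labelled cells, beside 0.0051 and -0.033 over all genes. In WT cells Atp2b1 alone was called whichever library was left out, and without any 1 WT library at most 1 other member was called with it. Scaling mattered for the stimulation results. Rescaling libraries to equal totals moved the median of all genes by 0.51 in WT and 0.38 in labelled cells. The genes called in WT were then Atp2a2, Atp2b1, Mcu and Micu2, with Itpr2 at -0.44 and Atp2a3 at -0.57 and not called, and all-gene calls went from 2013 lower and 1580 higher to 975 and 4261. In labelled cells Itpr1 lost its call and Micu2 gained one (log2 fold change 0.85), and all-gene calls went from 1855 lower and 1997 higher to 1077 and 3792. For genotype in unstimulated cells the shift was 0.12, or 0.16 with equal upper quartiles, and Atp2b4 kept its call. All-gene calls there went from 517 lower and 213 higher to 353 and 241 with equal totals and to 332 and 286 with equal upper quartiles.

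Levels of different genes were compared per kilobase of merged exons, with lengths from GENCODE vM1. In unstimulated WT cells Atp2b1 was highest, at 1387 ± 175 normalized counts per kilobase (SD, n = 2), followed by Itpr2 at 471 ± 8.11. Micu2 at 336 ± 50.9, Atp2a2 at 325 ± 14.2, Atp2b4 at 243 ± 10.4 and Itpr1 at 242 ± 27.3 came next. Micu2 and Atp2a2 did not differ beyond their spread, and neither did Atp2b4 and Itpr1. Atp2a3 at 160 ± 36.1, Itpr3 at 102 ± 13.2 and Mcu at 63.0 ± 5.22 were lowest. In unstimulated labelled cells Atp2b4 was the last of the 9, at 41.6 ± 9.94 normalized counts per kilobase. After stimulation Atp2a2 was first in both genotypes, at 616 ± 25.6 in WT and 581 ± 42.3 in labelled cells, and Atp2b1 second at 536 ± 34.9 and 511 ± 52.8. These first and second places by mean, and the last place of Atp2b4, were the same per kilobase of coding length. Other places were not, for example that of Mcu, ninth per exon length and sixth per coding length in unstimulated WT cells. Per coding length, stimulated libraries of Atp2a2 and Atp2b1 overlapped, at 1145 and 1079 against 1094 and 998 in WT. In labelled cells they had 1104 and 996 against 925 and 1071, so their order was not beyond the spread.

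Genes with the likest pattern were sought among 9138 others averaging 100 or more normalized counts, by the root mean square difference of centred log2 values over the 8 libraries. For Atp2b4, whose own spread was 1.21, they were Ckap2 at 0.229, Cobll1 at 0.263 and Cst7 at 0.269. Their log2 fold changes in unstimulated cells, which the choice by pattern largely fixes, were -2.06, -2.20 and -2.59. For Itpr2, with a spread of 0.622, they were Tnik at 0.0985, Camk1d at 0.106 and Isca1 at 0.128. For Itpr3 they were Skap1 at 0.132, Plcb2 at 0.139 and Nlrc3 at 0.143, and Plcb2, a phospholipase C gene, also belongs to 1 of the wider lists. For Itpr1 they were Tbc1d5, Nsmaf and Cdc14a at 0.122 to 0.170, for Atp2b1 Cep57, Thrap3 and Gm43065 at 0.114 to 0.133 and for Atp2a2 2810004N23Rik, Snrpa1 and Hyls1 at 0.0799 to 0.0937. For Atp2a3 they were Myo18a, Elf4 and Prag1 at 0.120 to 0.143, for Mcu Zadh2, Polr1a and Zfp944 at 0.146 to 0.169 and for Micu2 Commd7, Zkscan17 and Atmin at 0.0745 to 0.0935.

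Other genes of calcium handling were taken from 5 lists of 71 genes, of which 58 could be tested. In unstimulated cells 4 of the 58 (6.9%) were called lower in the labelled libraries and 0 higher, beside 3.35% and 1.38% of all genes. The lists were chosen with earlier results of these data known, so these shares are a description only. By list, 3 of the 4 were among the 14 tested genes of IP3 production and turnover and 1 among the 10 ER luminal proteins. Plcb4, a phospholipase C that makes IP3, had 1472 and 1584 normalized counts in WT and 501 and 276 in labelled libraries (log2 fold change -2.03, SE 0.327, adjusted p = 0.0126, limma). Ipmk, a kinase that phosphorylates inositol phosphates, had 3177 and 3226 against 559 and 1341 (log2 fold change -1.89, adjusted p = 0.0181, limma). Plcd1, a phospholipase C gene with few counts, had 56.1 and 35.5 against 7.34 and 2.67 (log2 fold change -3.04, adjusted p = 0.0369, limma), and this call was absent with edgeR and with equal totals, and was lost in 5 of 8 fits with 1 library left out. Canx, the ER chaperone calnexin, had 11392 and 9454 against 6457 and 5429 (log2 fold change -0.81, adjusted p = 0.0337, limma), and was not called with equal totals or equal upper quartiles. All 4 calls were lost when either unstimulated WT library was left out, and that of Canx also without either stimulated WT library. The median of the 14 tested genes of IP3 production and turnover was -0.17, that of the 10 ER luminal proteins -0.45, that of 9 ER release channels and regulators -0.11, that of 11 other pumps and exchangers 0.032 and that of 14 other mitochondrial genes -0.15, beside -0.0057 over all genes. In stimulated cells limma called none of the 58 between genotypes.

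**Figure D5:**
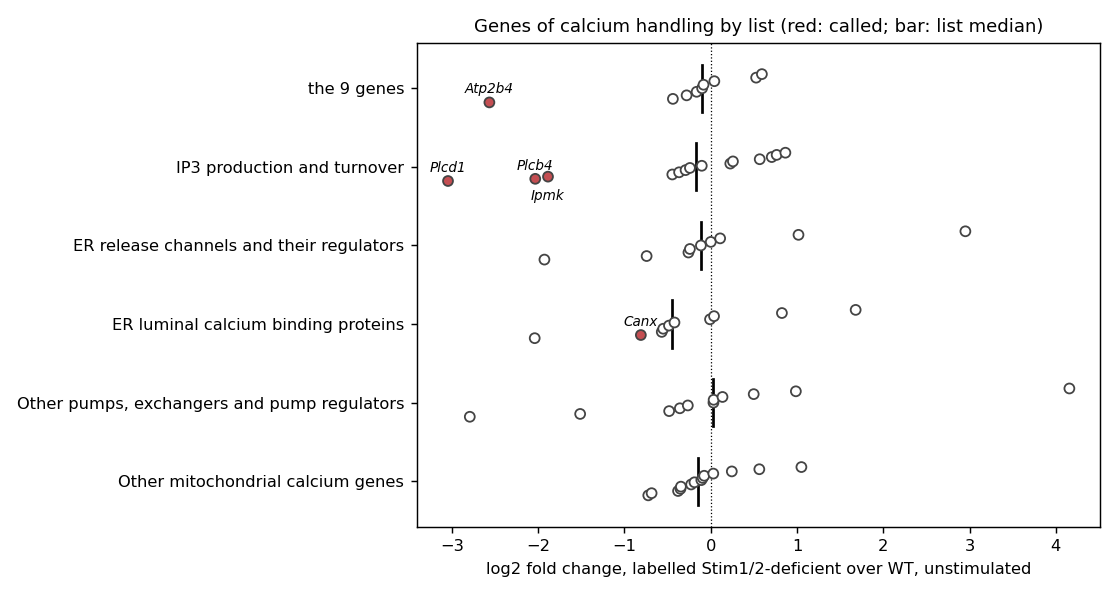
Log2 fold change between genotypes in unstimulated cells for the 9 genes and for the tested genes of 5 wider lists, 1 point a gene, with a bar at each median and called genes in red. Plcb4, Ipmk, Plcd1, Canx and Atp2b4 are the 5 called genes, all lower in the labelled libraries.

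With stimulation, 8 of these 58 genes fell and 1 rose in WT cells (13.8% and 1.72%, beside 13.1% and 10.2% of all genes). In labelled cells 8 fell and 5 rose (13.8% and 8.62%, beside 12% and 13% of all genes). The shares that fell were near those of all genes, and the shares that rose were below them. Plcg1, the phospholipase C activated by the T cell receptor, fell by 1.15 on the log2 scale in WT and by 1.00 in labelled cells. Itpkb, an IP3 kinase, fell by 1.75 and 2.80, Plcb2 by 0.84 and 1.09, the ryanodine receptor gene Ryr3 by 2.36 and 2.93 and the ER chaperone gene Hspa5 by 1.56 and 1.06. Vdac2, an outer mitochondrial membrane channel gene, rose by 0.71 and 0.87. The WT calls of Plcb2 and Vdac2 were lost when any WT library was left out, and those of Itpkb and Ryr3 without unstimulated WT replicate 4. In labelled cells Plcb2 and Vdac2 lost their calls without stimulated replicate 1. With equal totals Plcb2 was called in neither genotype. Further genes were called in WT cells. Ipmk fell by 2.71 on the log2 scale, Ryr2 fell by 3.77 and the exchanger gene Slc24a1 fell by 2.88, and the interaction, the difference between the responses of both genotypes, was not called for any of them. The calls of Ryr2 and Slc24a1 were lost without either unstimulated WT library or without stimulated WT replicate 1. Ryr2 was scarce in WT cells, at 121 and 85.7 before stimulation and 1.56 and 21.3 after it. The value of 1.56, in stimulated replicate 1, lies at the counting floor of 3 reads or fewer. DESeq2 called Ryr2 and edgeR did not, and its log2 fold change ranged from -5.33 to -2.21 with 1 library left out. In labelled cells Mrvi1, which encodes a partner of the IP3 receptors, fell by 3.40 and Letm2 fell by 1.24. Mrvi1 had 62.9 and 33.4 normalized counts in the unstimulated labelled libraries and 1.69 to 6.35 in the stimulated ones, and its call was lost without unstimulated replicate 1 or stimulated replicate 2. The summed normalized counts of the macrophage markers were also lower with stimulation in labelled libraries, at 10570 and 1712 before and 454 and 365 after, and their part in the Mrvi1 result was not tested. Ahcyl2, an IP3 receptor regulator gene, rose by 0.94 there, Mcub, which encodes an inhibitory uniporter subunit, rose 3.47-fold, and Canx rose by 0.62 on the log2 scale. The Canx call held in only 1 of 8 fits with 1 library left out and was lost with equal upper quartiles, and those of Ahcyl2 and Mcub were each lost without 2 of the labelled libraries. Smdt1, the uniporter regulator EMRE, rose by 0.79, a call lost when any library was left out. The pump gene Atp2b2 had 28.3 and 41.4 normalized counts in unstimulated labelled libraries and was at the counting floor of 3 reads or fewer after stimulation, with 1.59 and 0.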

How the data were processed

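Per the methods, the authors mapped reads with Bowtie to NCBIM37, dropped PCR duplicates (Picard), counted with HTSeq and tested with DESeq2, whereas the submitters' processing notes name mm10 and STAR 2.7. Symbols in the table include Mcu and Micu2, which GENCODE vM1 lists under older names, so the build was not settled and coordinates are those of RefSeq on GRCm38.p6. Methods and labels also name different library kits, stranded in the labels only, so reads from overlapping antisense genes may not be separated. The deposited signal values are reads per gene over a library's size factor, as the authors scaled them, and 100% were whole multiples of 1 read within 0.006 (1 read equals 0.759 to 1.48 normalized counts).

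With limma 3.58.1 in R 4.3.3, 1 model of 4 groups (lmFit, eBayes, trend) was fitted to log2(value + 1) of genes averaging 10 or more, with Benjamini-Hochberg adjustment over 15419 genes per contrast. Alternatives were pseudocounts of 0.1 and 5, other filters, equal totals or upper quartiles, edgeR 4.0.16 and DESeq2 1.42.0 on the recovered whole reads, fits to 4 libraries, a replicate block and each library left out. Scripts were tested on simulated data. All 9 members are reported, every called gene of the 5 lists, and the 3 likest genes for each member. Members and lists were chosen with earlier results of these data known. Where the labels name no tool version, it is not given in the sources used here.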

Additional observations from a re-analysis of the deposited data

How the results depend on the processing

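Of the values of single members under the alternatives, 708 kept their direction and side of the threshold, 31 reversed, 14 gained and 21 lost a call, and none of the 31 was called. In unstimulated cells 1 member was called between genotypes, and 0 to 1 with 1 library left out (0 without WT replicate 3 or 4, when 8 and 23 genes of all were called). In stimulated cells the count went from 0 to 2 with DESeq2 and to 2 with a replicate block (Itpr1 and Atp2b4 in both), and ranged from 0 to 2 with 1 library left out. Calls over all genes rose in the same settings, from 42 to 525 with DESeq2, 393 with the block and 762 without stimulated labelled replicate 1. It was 5 for stimulation in WT cells, with a range of 1 to 6 (1 without stimulated replicate 1, 2 without any other WT library). Whether same-numbered samples came from the same pool of mice is not given in the sources used here, so a pairing was not settled. The unstimulated genotypes share no replicate number. Deviations of same-numbered libraries correlated at 0.17 between stimulated genotypes and 0.26 between labelled states, and the block left 5 calls for stimulation in labelled cells, Itpr1 being lost. With equal totals and upper quartiles, genotype in unstimulated cells reversed for Itpr1 (0.021 and 0.063) and Atp2a3 (0.037 and 0.079) and the interaction for Atp2a2 (-0.051 and -0.075), and equal totals reversed stimulation in WT for Atp2b4 (0.0071). DESeq2 reversed Itpr3 between stimulated genotypes (0.0024) and Itpr1 with stimulation in WT (-0.0016). With 1 library left out, genotype in unstimulated cells ranged from -0.21 to 0.015 for Itpr1, from -0.32 to 0.15 for Atp2a3, from -0.57 to 0.0098 for Atp2b1 and from -0.042 to 0.13 for Mcu, and in stimulated cells from -0.069 to 0.36 for Itpr2, from -0.32 to 0.27 for Itpr3 and from -0.18 to 0.036 for Atp2b1. The interaction ranged from -0.047 to 0.20 for Atp2a2, from -0.41 to 0.050 for Atp2a3, from -0.080 to 0.50 for Atp2b1 and from -0.14 to 1.38 for Atp2b4. Stimulation ranged in WT from -0.17 to 0.17 for Itpr1 and from -0.013 to 0.30 for Micu2, and in labelled cells from -0.66 to 0.87 for Atp2b4 and from -0.17 to 0.38 for Mcu. The causes were not tested. With 2 libraries a group, where a left-out library leaves 1 that is assumed to vary like the others, small differences were not detectable.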
